A study of Mus musculus with 29 samples.

Results

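The basophil and mast cell genes described here are 7 genes of granules, mediators and the IgE receptor: Hdc, Cpa3, Mcpt8, Prss34, Gzmb, Fcer1a and Ms4a2. They were chosen by name, with earlier results of these data known, and all 7 were found by Ensembl identifier among the 38924 identifiers of the count table. Counts of calls among them beside the share of all genes are therefore descriptive. Their values were read in 29 RNA-seq libraries of sorted bone marrow cells from C57BL/6 mice, young animals sampled 6 weeks after pIpC. pIpC is a synthetic double-stranded RNA that triggers interferon and often serves to induce Mx1-Cre, and it was given to Dnmt3a-mutant and control mice alike.

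The mutant groups came from mice with a Dnmt3a mutation and held 3 LT-HSC, 4 ST-HSC, 4 MPP3 and 4 MPP4 libraries. The controls were 4 LT-HSC, 3 ST-HSC, 3 MPP3 and 4 MPP4 libraries. LT-HSC and ST-HSC are long-term and short-term haematopoietic stem cells, and MPP3 and MPP4 are multipotent progenitors biased to myeloid and to lymphoid fates. The labels name neither the mutant allele, nor a Cre line or its promoter, nor the gates of the sort. They also do not say whether replicates came from separate animals, so every p-value here is set against a spread between libraries that could be technical. By its title, the series belongs to work on Dnmt3a-mutant stem cells, the aged microenvironment and myeloid malignancy.

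Basophils and mast cells are granulated immune cells that bind IgE through a receptor of an alpha chain, a beta chain and shared gamma chains, and that release histamine, proteases and lipid mediators when antigen crosslinks it. Both arise in the mouse from bone marrow progenitors, through stages that express Gata2 and, for mast cells, Kit. Hdc, histidine decarboxylase, makes histamine. Cpa3 is the carboxypeptidase of mast cell granules. Mcpt8 and Prss34 are serine proteases known in the mouse mainly from basophils. Gzmb, granzyme B, is a serine protease best known from cytotoxic lymphocytes. Fcer1a and Ms4a2 encode the alpha and beta chains of the IgE receptor.

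On GRCm38, Hdc lies on chromosome 2 (126593667 to 126619299), Cpa3 on chromosome 3 (20215620 to 20242181), Mcpt8 on chromosome 14 (56082166 to 56085273) and Prss34 on chromosome 17 (25298394 to 25300165). Gzmb is on chromosome 14 (56258838 to 56262260), Fcer1a on chromosome 1 (173221284 to 173227214) and Ms4a2 on chromosome 19 (11615523 to 11623719). Prss34 is on the plus strand and the other 6 are on the minus strand, and all 7 are protein-coding. The sequences around the start sites of Hdc, Cpa3, Mcpt8 and Prss34 are shown because these 4 genes carry most of the counts and the comparisons below. Each runs 5′ to 3′ on the gene's own strand, from 250 bases before to 50 bases after the RefSeq start on GRCm38.p6, with sequences from RefSeq. For Hdc and Mcpt8 that start lies inside the gene span given above, by 621 and 76 bases.
Hdc, chr2:126618629-126618928, minus strand: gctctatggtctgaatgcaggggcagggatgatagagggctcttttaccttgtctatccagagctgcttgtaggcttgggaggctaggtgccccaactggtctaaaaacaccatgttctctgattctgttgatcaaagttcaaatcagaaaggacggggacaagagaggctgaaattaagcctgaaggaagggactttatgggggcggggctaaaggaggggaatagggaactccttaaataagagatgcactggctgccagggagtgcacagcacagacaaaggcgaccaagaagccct
Cpa3, chr3:20242132-20242431, minus strand: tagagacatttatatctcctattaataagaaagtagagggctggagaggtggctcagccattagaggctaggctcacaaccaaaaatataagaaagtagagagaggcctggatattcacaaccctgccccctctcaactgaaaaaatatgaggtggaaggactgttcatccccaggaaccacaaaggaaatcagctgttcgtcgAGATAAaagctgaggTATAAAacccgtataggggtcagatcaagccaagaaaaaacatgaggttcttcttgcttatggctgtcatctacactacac
Mcpt8, chr14:56085148-56085447, minus strand: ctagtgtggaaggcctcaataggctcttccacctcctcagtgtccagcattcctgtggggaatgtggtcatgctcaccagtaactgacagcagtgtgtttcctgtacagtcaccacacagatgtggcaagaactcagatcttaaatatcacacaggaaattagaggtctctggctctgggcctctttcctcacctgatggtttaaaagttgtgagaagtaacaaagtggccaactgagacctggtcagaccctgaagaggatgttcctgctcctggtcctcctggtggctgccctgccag
Prss34, chr17:25298144-25298443, plus strand: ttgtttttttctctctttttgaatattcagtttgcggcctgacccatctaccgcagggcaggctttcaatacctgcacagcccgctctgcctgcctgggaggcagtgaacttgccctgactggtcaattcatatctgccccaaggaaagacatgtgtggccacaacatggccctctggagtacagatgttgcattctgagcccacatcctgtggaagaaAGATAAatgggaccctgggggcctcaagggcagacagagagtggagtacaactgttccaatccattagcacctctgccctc

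Capitals mark 2 motifs. AGATAA is a form of the motif that GATA factors bind and was read on both strands. TATAAA is a TATA box motif and was read on the gene's own strand. The Cpa3 window held AGATAA starting 46 bases before the start site and TATAAA starting 31 bases before it. The Prss34 window held AGATAA 31 bases before the start. Neither motif was in the windows of Hdc or Mcpt8. Of the windows not printed, Ms4a2 held 3 AGATAA matches, Fcer1a held 1 together with TATAAA, and Gzmb held none. AGATAA was thus in 4 of the 7 windows, against 11.2% of 32851 RefSeq windows of the same length, and TATAAA in 2 of 7, against 8.32%. TGATAA, the other GATA form searched on both strands, was in 0 of 7 windows and in 9.05% of all. These matches describe the letters of the windows and were not tied to any measurement.

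Library totals ran from 6133994 to 10374672 counts, with a median of 8154515. Levels are given as CPM, library-size scaled counts after TMM normalisation. In a library where a gene had no count, its level could still have been as high as 0.288 to 0.564 CPM, the worth of 3 counts, which covers counting error only. The sorted populations carried their labels: Slamf1, which marks LT-HSC, stood at 31.1 to 54.1 CPM in mutant and 14.2 to 29.8 CPM in control LT-HSC libraries, and Flt3, which marks MPP4, at 408 to 459 CPM in mutant and 379 to 460 CPM in control MPP4 libraries. Outside LT-HSC, Slamf1 was at most 3.52 CPM, except in mutant ST-HSC replicate 2, at 406 CPM. Some libraries stood apart before any comparison: control LT-HSC replicates 1, 2 and 3 held 349 to 2258 CPM of the neutrophil gene S100a8, against 3.67 CPM in control LT-HSC replicate 4 and 5.83 to 67.2 CPM in the mutant LT-HSC libraries. Control ST-HSC replicate 1 stood apart by Igkc, an immunoglobulin gene, at 1402 CPM, against 2.26 and 62.4 CPM in the other control ST-HSC libraries. The results of the 7 genes that rest on the 3 control LT-HSC libraries are given with and without them. In bulk libraries, fewer cells of a type and less RNA per cell cannot be told apart.

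The 7 genes were low in stem and progenitor cells, and MPP3 was the population in which most of them were read. Per kilobase of merged exons, the mean over 29 libraries was 7.52 CPM for Cpa3, 5.28 for Mcpt8, 3.20 for Prss34, 2.65 for Hdc, 1.24 for Fcer1a, 0.286 for Gzmb and 0.0828 for Ms4a2. Hdc had a count in 26 of 29 libraries and Cpa3 in 27, whereas Mcpt8 and Fcer1a had one in 19, Prss34 in 13, Ms4a2 in 12 and Gzmb in 8. All 7 genes had a count in 2 of the 4 mutant MPP3 libraries, in all 3 control MPP3 libraries and in 1 further library, control LT-HSC replicate 1. At the other end, the 4 mutant ST-HSC libraries each held only 1 or 2 of the 7.

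**Figure D1:**
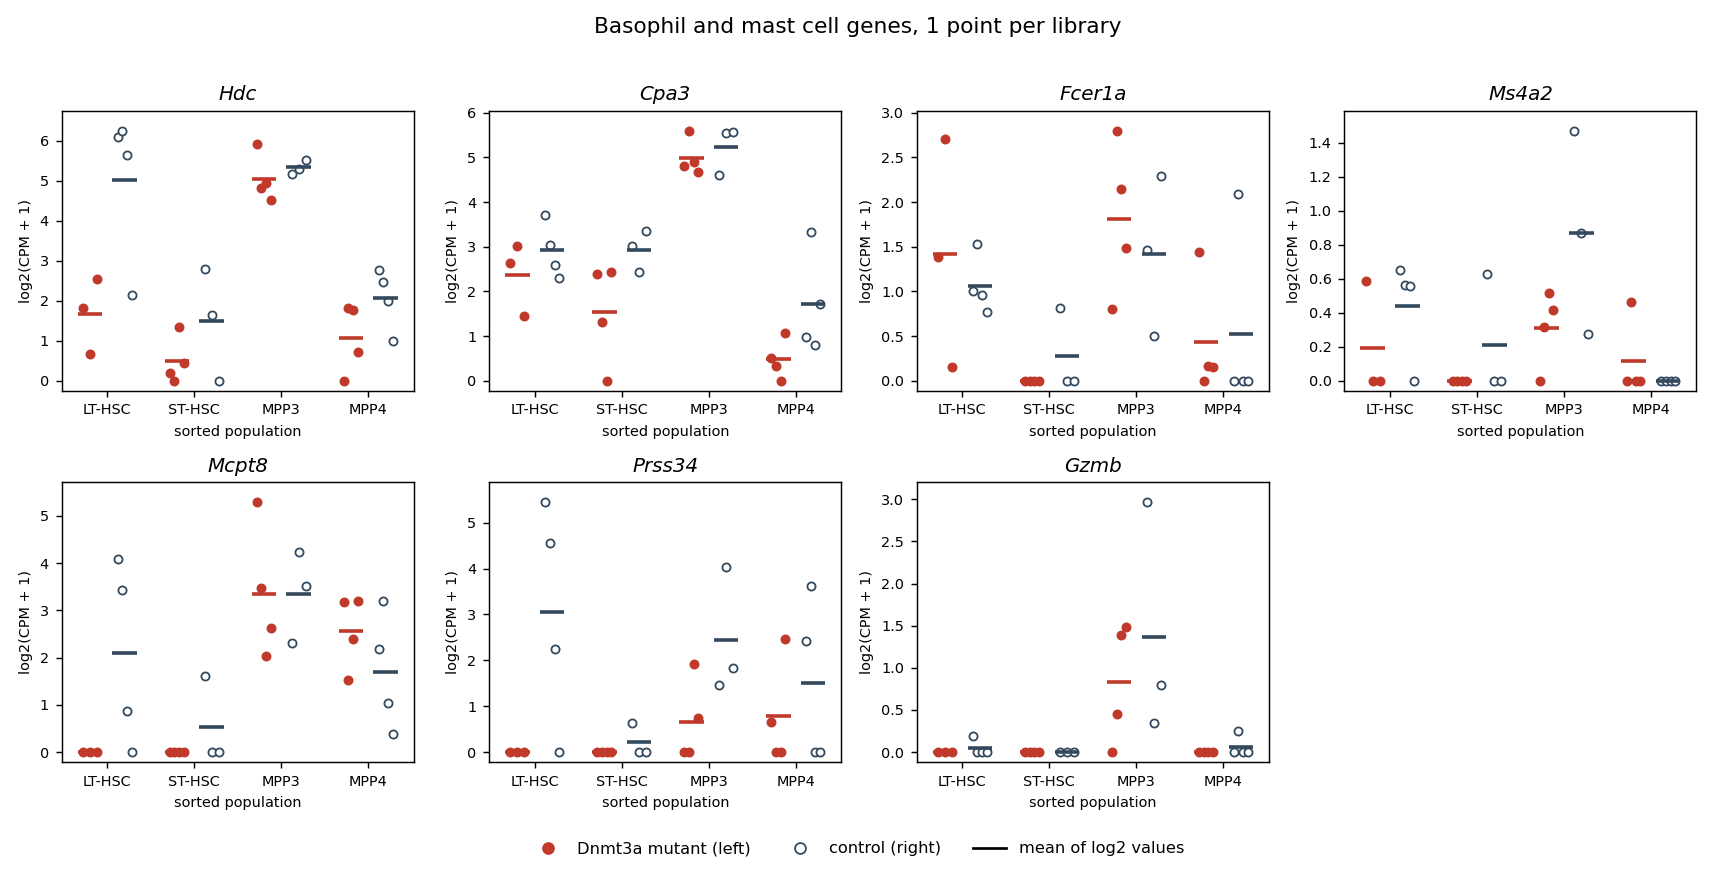
Level of each of the 7 genes in every library of the 4 populations, as log2(CPM + 1), with mutant libraries (filled) left of control libraries (open) and a bar at the mean of the log2 values; each panel has its own scale. Hdc and Cpa3 are high in all 7 MPP3 libraries, and 3 of the 4 control LT-HSC libraries are high in Hdc, between 49.5 and 75.1 CPM.

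Hdc was highest in control LT-HSC and in MPP3, and low elsewhere. Mean levels were 48.9 ± 32.2 CPM in control LT-HSC (SD, n = 4), 34.8 ± 17.1 in mutant MPP3 (n = 4) and 39.8 ± 5.18 in control MPP3 (n = 3). These 3 groups overlapped, and no MPP3 library of either genotype came below 22.0 CPM. They were followed by control MPP4 at 3.59 ± 2.09 CPM (n = 4), control ST-HSC at 2.72 ± 3.04 (n = 3), mutant LT-HSC at 2.63 ± 2.12 (n = 3), mutant MPP4 at 1.40 ± 1.26 (n = 4) and mutant ST-HSC at 0.513 ± 0.709 (n = 4). Each of these last 5 groups overlapped its neighbours in that order.

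Cpa3 set MPP3 apart from the other populations more cleanly than Hdc did. Its level was 26.9, 47.2, 28.8 and 24.4 CPM in the mutant MPP3 libraries and 23.2, 46.1 and 46.1 CPM in the control MPP3 libraries. The highest library of any other population, control LT-HSC replicate 1, had 12.2 CPM, so no library outside MPP3 reached the MPP3 range. Behind MPP3 came control LT-HSC at 7.10 ± 3.64 CPM, control ST-HSC at 6.91 ± 2.42, mutant LT-HSC at 4.69 ± 2.75, control MPP4 at 3.28 ± 3.95, mutant ST-HSC at 2.54 ± 2.16 and mutant MPP4 at 0.441 ± 0.464, with n as above. Neighbours in this order overlapped, and 9.11 CPM in control MPP4 replicate 2 was the value that most widened its group.

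Mcpt8 and Prss34, the pair of basophil proteases, differed from each other in where they were read. Mcpt8 had 38.0, 10.1, 3.12 and 5.16 CPM in mutant MPP3 and 3.94, 17.9 and 10.5 CPM in control MPP3. It also had a count in every MPP4 library, with 8.01, 1.88, 4.24 and 8.25 CPM in mutant and 3.55, 8.16, 1.05 and 0.298 CPM in control MPP4. It had 0 counts in all 3 mutant LT-HSC and all 4 mutant ST-HSC libraries. Prss34 was read at 42.5, 22.4 and 3.75 CPM in control LT-HSC replicates 1 to 3, which made control LT-HSC its highest group. In MPP3 it stood at 0, 0, 2.80 and 0.673 CPM in mutant and at 1.77, 15.3 and 2.54 CPM in control libraries. Of the 8 MPP4 libraries, 4 had a Prss34 count, with 0.572 and 4.56 CPM in mutant replicates 1 and 4, and 4.37 and 11.3 CPM in control replicates 1 and 2.

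The IgE receptor chains were low, and Ms4a2 was near the limit of detection. Fcer1a, the chain that binds IgE, reached at most 5.95 CPM, in mutant MPP3 replicate 2, whose group averaged 2.98 ± 2.27 CPM (n = 4), against 2.03 ± 1.77 in control MPP3 (n = 3). It was also read in all LT-HSC libraries, at 1.603, 5.52 and 0.114 CPM in mutant and 1.00, 1.90, 0.939 and 0.705 CPM in control, and in none of the 4 mutant ST-HSC libraries. Ms4a2, the chain that amplifies the signal, had only 55 counts over all 29 libraries and at most 1.77 CPM, in control MPP3 replicate 1. In the libraries without a count it may still be present below the floors given above.

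Gzmb was read almost only in MPP3. It had 0, 0.364, 1.61 and 1.79 CPM in mutant MPP3 and 6.80, 0.275 and 0.741 CPM in control MPP3, and 3 counts in all outside MPP3. Control MPP3 replicate 1 alone held 50 of the 96 Gzmb counts of the series. Of other cytotoxic granule genes, Gzma was counted in 2 of 4 mutant MPP3 libraries and in no control MPP3 library, Prf1 in 1 mutant and in no control MPP3 library, and Nkg7 stood at 102 to 149 CPM in mutant and 111 to 166 CPM in control MPP3. Summed over 11 NK and T cell genes, levels ran from 115 to 159 CPM in mutant MPP3, with 1 of the 11 at 0, and from 131 to 176 CPM in control MPP3, with 2 at 0. Nkg7 alone made up most of these sums in both genotypes, so they say little of the rest of the list. Over 9 genes of plasma cells and plasmacytoid dendritic cells, none of them at 0, the sums were 1324 to 14790 CPM in mutant and 1111 to 6130 CPM in control MPP3, with the immunoglobulin gene Igkc at 1081 to 13930 CPM in mutant and 755 to 5355 CPM in control MPP3. The part of these cells in the Gzmb counts was not tested.

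The question of the design was whether the Dnmt3a mutation changed expression within each population, and for these 7 genes the widest difference was in LT-HSC. Hdc had 2.505, 0.575 and 4.804 CPM in mutant LT-HSC, against 67.5, 75.1, 49.5 and 3.38 CPM in control LT-HSC. Control replicate 4 lay inside the mutant range, and the other 3 control libraries lay above every mutant library. Prss34 had 0 counts in all 3 mutant libraries, against 297, 189, 32 and 0 counts in control replicates 1 to 4. Mcpt8 had 0 counts in all 3 mutant libraries, against 112, 83, 7 and 0 counts. Mutant and control libraries overlapped for all 3 genes, in each case through control replicate 4.

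In edgeR's quasi-likelihood test over 13922 genes the Hdc difference was -4.22 on the log2 scale (SE 0.931, adjusted p = 0.197) and was not called. Prss34 was at 0 in mutant LT-HSC, against 17.2 ± 19.5 CPM in control LT-HSC, at least 52.0-fold lower with an adjusted p = 0.203, and was not called either. Without control replicate 1 that bound was 26.5-fold. Prss34 passed the filter on low counts only through control replicates 1 to 3, so its test could only place it lower in mutants. Cpa3 was 4.69 ± 2.75 CPM in mutant and 7.10 ± 3.64 CPM in control LT-HSC (log2 difference -0.60, adjusted p = 0.860). Fcer1a was 2.41 ± 2.79 CPM in mutant and 1.14 ± 0.525 in control LT-HSC (log2 difference 1.06, adjusted p = 0.848). Of the 7 genes, 4 passed the filter on low counts and 0 were called, where 0% of all genes tested were called and 1185 had an unadjusted p under 0.05, 2 of the 7 among them. Mcpt8, Ms4a2 and Gzmb did not pass the filter.

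Whether Hdc, Prss34 and Mcpt8 were called lower in mutant LT-HSC turned on the setting and on 1 library. Without the filter, 3 of the 7 were called lower, where 0.884% of genes were: Hdc (adjusted p = 0.0119), Prss34 (0.0168) and Mcpt8 (0.0372). DESeq2 called Hdc alone (0.0109), where it called 1.92% of genes lower. Without control replicate 4, edgeR called Hdc (-4.59, adjusted p = 0.000409) and Prss34 (0.00157), where 2.99% of genes were called lower. Prss34 again passed the filter through its control libraries alone. Without control replicates 1, 2 and 3, a choice made after seeing the data that leaves 1 control library, the Hdc difference was -0.36 (adjusted p = 1.00) and Prss34 was not kept by the filter.

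The same 3 control LT-HSC libraries were high in genes of other blood cells. Epx and Prg2, granule proteins of eosinophils, stood at 0 and at most 1.70 CPM in mutant LT-HSC, against 23.5 to 155 and 83.4 to 664 CPM in control replicates 1 to 3 and 0 in control replicate 4. Summed over 8 eosinophil genes, levels ran from 1.94 to 7.82 CPM in mutant and from 3.24 to 1257 CPM in control LT-HSC. Over 12 neutrophil genes they ran from 91.3 to 459 CPM in mutant and from 69.5 to 12580 CPM in control LT-HSC, and over 7 erythroid genes from 242 to 585 CPM in mutant and from 342 to 20430 CPM in control LT-HSC. In mutant LT-HSC, 1 of the 8 eosinophil genes (Epx) and 1 of the 12 neutrophil genes (Elane) were at 0 in every library, and in control LT-HSC none was. The part of these cells in the Hdc, Prss34 and Mcpt8 values was not tested.

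**Figure D2:**
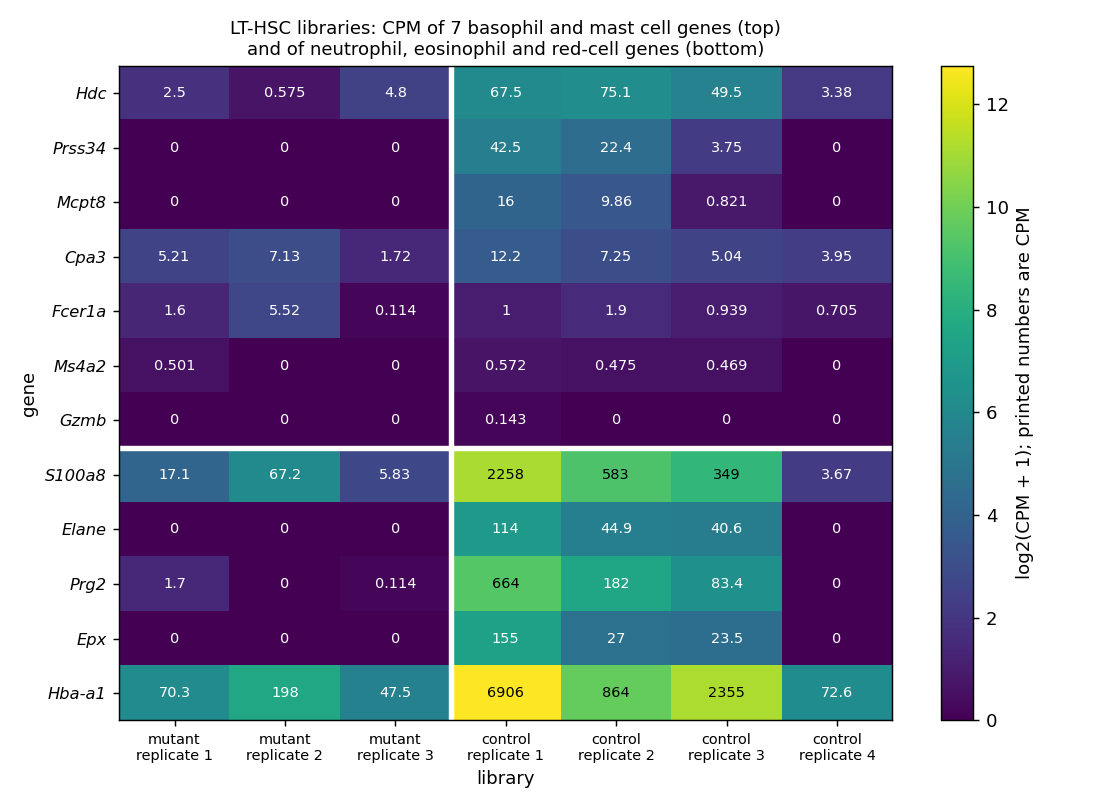
CPM of the 7 genes (top) and of neutrophil, eosinophil and red-cell genes (bottom) in each LT-HSC library, with the 3 mutant libraries left of the 4 control libraries; colour is log2(CPM + 1) and the printed numbers are CPM. Control replicates 1 to 3 are high in Hdc and in all 5 genes below the line, with Prg2 at 83.4 to 664 CPM, and control replicate 4 has 3.38 CPM of Hdc and 0 of Prg2.

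The labels name no batch, but the number in each sample's description begins with 17 or 18. Among the libraries with 17, Hdc had 4.804 CPM in 1 mutant library and 67.5 and 75.1 CPM in 2 control libraries. Among those with 18, it had 2.505 and 0.575 CPM in 2 mutant libraries and 49.5 and 3.38 CPM in 2 control libraries. With these digits as a term, the Hdc difference was -4.00 (adjusted p = 0.343).

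In ST-HSC, mutant and control libraries overlapped for each of the 7 genes. Hdc had 0.141, 0, 1.55 and 0.360 CPM in mutant, against 6.00, 2.15 and 0 CPM in control ST-HSC, a log2 difference of -2.38 (SE 1.41, adjusted p = 0.998). Cpa3 had 4.23, 1.503, 0 and 4.44 CPM in mutant, against 7.09, 4.41 and 9.23 CPM in control ST-HSC (-1.42, SE 1.00, adjusted p = 0.998). Only these 2 of the 7 passed the filter, and 0 were called, where 0% of 13381 genes were called, 493 had an unadjusted p under 0.05 and DESeq2 called 0 genes. Prss34, Mcpt8, Ms4a2 and Fcer1a were each at 0 in all mutant ST-HSC libraries and were counted in 1 control library, replicate 1, at 0.546, 2.07, 0.546 and 0.764 CPM. That library was also the one high in Igkc, and in Prg2 at 117 CPM, against 0 and 0.159 CPM in the other control ST-HSC libraries.

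In MPP3, mutant and control libraries overlapped for all 7 genes. Hdc stood at 59.9, 27.3, 29.9 and 22.0 CPM in mutant and 35.2, 38.7 and 45.4 CPM in control libraries. The log2 difference was -0.20 (SE 0.360, adjusted p = 1.00). Cpa3 differed by -0.27 (SE 0.348, adjusted p = 1.00), Mcpt8 by 0.39 (SE 0.816), Fcer1a by 0.54 (SE 0.962), Gzmb by -1.43 (SE 1.27) and Prss34 by -2.84 (SE 1.32). Of the 6 genes tested, 0 were called, where 0% of 13572 genes were called, 302 had an unadjusted p under 0.05 and DESeq2 called 2 genes, neither of them among the 7. The errors of Hdc and Cpa3 were the smallest of the 6, while those of the other 4 ran from 0.816 to 1.32 log2 units. Such an error is not a limit of detection, since Prss34 differed by more than its error and was not called. The lack of calls therefore does not exclude a difference in any of the 6 genes.

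In MPP4, Hdc had 0, 2.51, 2.42 and 0.651 CPM in mutant and 5.87, 4.51, 3.00 and 0.993 CPM in control libraries, a log2 difference of -1.35 (SE 0.901, adjusted p = 0.999). Mcpt8 averaged 5.59 ± 3.08 CPM in mutant and 3.26 ± 3.54 CPM in control MPP4 (0.78, SE 0.795, adjusted p = 0.999). These 2 genes passed the filter and 0 were called, where 0% of 13108 genes were called, 413 had an unadjusted p under 0.05 and DESeq2 called 6, none of the 7 among them. Cpa3, not kept by the filter, had 0.429, 0.251, 0 and 1.09 CPM in mutant and 0.956, 9.11, 0.751 and 2.28 CPM in control MPP4.

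Averaged over the 4 populations, the log2 differences were Hdc -2.04 (SE 0.471), Prss34 -4.57 (SE 1.24), Mcpt8 -3.29 (SE 0.917), Cpa3 -1.28 (SE 0.400) and Fcer1a -0.84 (SE 0.679). The Gzmb value of -1.31 had an SE of 3465 and gives no direction. None was called at an adjusted p under 0.05 (Hdc 0.0775, Prss34 0.187, Mcpt8 0.206, Cpa3 0.301), where 0.0251% of 15915 genes were, 4 genes, all lower in mutants. An unadjusted p under 0.05 was reached by 4 of the 7 and by 1199 genes. Epx, the eosinophil peroxidase gene, was 1 of those 4 (adjusted p = 0.0387). Without the filter Hdc (0.0125) and Prss34 (0.0439) were called, where 0.301% of genes were called lower. Without control LT-HSC replicate 4 Hdc was called (0.0132), where 0.568% were, and likewise without control ST-HSC replicate 3 (0.0359), where 0.222% were. Without control LT-HSC replicates 1 to 3 the averages were -1.07 for Hdc, -2.04 for Prss34, -1.10 for Mcpt8 and -1.07 for Cpa3 (adjusted p = 1.00 each). The fitted averages of Prss34, Mcpt8, Fcer1a and Gzmb depend on groups at 0 in every library and are not bounds.

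The mutant effect was also tested for a difference between populations, and no gene was called, 0% of 15915, with 947 at an unadjusted p under 0.05. Mcpt8 had the lowest p of the 6 tested (F = 6.34, adjusted p = 0.512), followed by Hdc (F = 3.40, adjusted p = 0.779). For Mcpt8 the group means were 0 in mutant and 6.67 CPM in control LT-HSC but 14.1 in mutant and 10.8 CPM in control MPP3. Without control LT-HSC replicates 1 to 3 the F value of Mcpt8 was 2.86 (adjusted p = 1.00).

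Populations were compared separately within mutant and within control libraries, and most of the calls among the 7 genes involved MPP3. The shares of all genes called in these comparisons are edgeR's, and none is given for DESeq2. Among mutant libraries, MPP3 was higher than ST-HSC in all 4 genes tested, where 2.82% of 14766 genes were called higher and 4.27% in either direction. Hdc stood at 59.9, 27.3, 29.9 and 22.0 CPM in mutant MPP3, against 0.141, 0, 1.55 and 0.360 CPM in mutant ST-HSC, a log2 difference of 6.02 (SE 1.02, adjusted p = 0.00255). Cpa3 rose by 3.61 (SE 0.842, adjusted p = 0.0179). Mcpt8 was at least 31.1-fold higher (adjusted p = 0.00225) and Fcer1a at least 6.58-fold higher (adjusted p = 0.0374), both against ST-HSC libraries without a count. Both genes passed the filter on low counts through other groups, so their tests could only place them higher in MPP3. Without mutant MPP3 replicate 1, which had 38.0 CPM, the Mcpt8 bound was 13.5-fold. The MPP3 and ST-HSC libraries did not overlap in any of the 4 genes. For Mcpt8 and Fcer1a, at 0 in ST-HSC, this means only that every MPP3 library had a count. Here and below, the share of all genes whose ranges do not overlap was not counted. The Fcer1a call was lost without any 1 of 6 of the 8 libraries, with adjusted p up to 0.0784, and the Cpa3 call without mutant MPP3 replicate 2 (0.0541). Without mutant ST-HSC replicate 2, the library high in Slamf1, the differences were 5.67 for Hdc (adjusted p = 0.00543) and 3.44 for Cpa3 (0.0435), and Mcpt8 stayed called (0.00455).

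Against mutant LT-HSC, mutant MPP3 was higher in Hdc by 3.70 (SE 0.990, adjusted p = 0.0489) and in Mcpt8 by at least 42.7-fold (adjusted p = 0.00426), a bound of 18.5-fold without mutant MPP3 replicate 1. These were 2 of the 4 genes tested, where 1.71% of genes were called higher. Mcpt8, at 0 in mutant LT-HSC, passed the filter through other groups, so its test could only place it higher in MPP3. Hdc libraries did not overlap, the lowest mutant MPP3 library at 22.0 CPM standing above the highest mutant LT-HSC library at 4.804 CPM. Its call was lost without any of the 7 libraries, with adjusted p from 0.0589 to 0.198. Cpa3 averaged 31.8 ± 10.4 CPM in mutant MPP3 and 4.69 ± 2.75 CPM in mutant LT-HSC (2.74, adjusted p = 0.124), and Fcer1a 2.98 ± 2.27 CPM in mutant MPP3 and 2.41 ± 2.79 CPM in mutant LT-HSC (0.27, adjusted p = 0.965).

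Markers of other blood cells also differed between mutant MPP3 and mutant stem cells. Of 8 eosinophil genes, 5 were called higher in mutant MPP3 than in mutant ST-HSC (Epx, Ear1, Prg2, Ear6 and Siglecf) and 3 higher than in mutant LT-HSC (Epx, Prg2 and Siglecf). Their summed levels were 100.5 to 289.8 CPM in mutant MPP3, against 1.503 to 9.32 CPM in mutant ST-HSC, where Epx, Ear1 and Ear6 were at 0, and 1.94 to 7.82 CPM in mutant LT-HSC, where Epx was at 0. Of 12 neutrophil genes, 4 were called higher in both comparisons (Mpo, Ctsg, Elane and Prtn3, which early myeloid progenitors also express). In each comparison 5 of the 12 had a log2 difference below 0. Sums over the 12 were 4230 to 11390 CPM in mutant MPP3. They were 133 to 837 CPM in mutant ST-HSC and 91.3 to 459 CPM in mutant LT-HSC. Of 9 plasma and plasmacytoid dendritic cell genes, 3 were called higher in both (Igkc, Jchain and Mzb1), with sums of 1324 to 14790 CPM in mutant MPP3, against 153 to 256 CPM in mutant ST-HSC and 179 to 264 CPM in mutant LT-HSC. In mutant MPP4 the sums of the 3 lists were 2.29 to 11.9, 656 to 1241 and 204 to 292 CPM. In control MPP3, where they were 90.5 to 422, 6620 to 9442 and 1111 to 6130 CPM, no eosinophil gene and none of the plasma and plasmacytoid dendritic cell genes were called against control LT-HSC or ST-HSC, while of the neutrophil genes 3 were called higher and 1 lower against control LT-HSC and 4 higher against control ST-HSC. Of the 12 neutrophil genes, 8 had a log2 difference below 0 in control MPP3 against control LT-HSC and 5 against control ST-HSC. The part of these other blood cells in the population differences of the 7 genes was not tested.

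MPP4 had less Hdc and Cpa3 than MPP3 in both genotypes. In mutant libraries Hdc fell to 1.40 ± 1.26 CPM in MPP4, against 34.8 ± 17.1 CPM in MPP3, a log2 difference of -4.61 (SE 0.926, adjusted p = 0.0133). Cpa3 fell by 6.08 (SE 0.976, adjusted p = 0.00202). Those 2 were called of 4 tested, where 1.13% of genes were called lower, and Mcpt8 (-1.31, adjusted p = 0.601) and Fcer1a (-2.58, adjusted p = 0.496) were not. In control libraries Hdc had 5.87, 4.51, 3.00 and 0.993 CPM in MPP4, against 35.2, 38.7 and 45.4 CPM in MPP3 (-3.48, SE 0.845, adjusted p = 0.04995). Cpa3 fell by 3.52 (SE 0.674, adjusted p = 0.0148). Of 5 genes tested these 2 were called, where 0.998% of genes were called lower. The ranges did not overlap for either gene in either genotype. The control Hdc call was lost without any of the 7 libraries (adjusted p 0.0926 to 0.155), the control Cpa3 call without control MPP3 replicate 3 (0.0535) or MPP4 replicate 4 (0.0608), and the mutant Hdc call without mutant MPP4 replicate 4 (0.0597).

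Mcpt8 was the 1 gene of the 7 called higher in MPP4 than in stem cells, and this was in mutant libraries. With 8.01, 1.88, 4.24 and 8.25 CPM in mutant MPP4 and 0 counts in every mutant stem cell library, it was at least 16.97-fold higher than in mutant LT-HSC (adjusted p = 0.00930, where 0.901% of 14766 genes were called higher). It was at least 12.3-fold higher than in mutant ST-HSC (adjusted p = 0.00546, where 1.16% were). Mcpt8 passed the filter through groups other than the mutant stem cells, so both tests could only place it higher in MPP4. In control libraries the Mcpt8 differences of MPP4 were -1.0 (SE 1.22) from LT-HSC and 2.15 (SE 1.47) from ST-HSC, neither called. Mutant ST-HSC against mutant LT-HSC gave 0 calls among 4 genes tested, where 0.278% of genes were called, with 2 of the 4 and 1171 of all at an unadjusted p under 0.05. DESeq2 called Fcer1a lower there (adjusted p = 0.0265), a gene at 0 in mutant ST-HSC, so that test could only place it lower.

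Among control libraries the Hdc differences from LT-HSC rest on LT-HSC replicates 1, 2 and 3. Hdc averaged 3.59 ± 2.09 CPM in control MPP4, against 48.9 ± 32.2 CPM in control LT-HSC, and was called lower (-3.76, SE 0.827, adjusted p = 0.0127), the 1 call among 5 genes tested, where 3.01% of 14937 genes were called lower. Without control MPP4 replicate 4 its adjusted p was 0.0502, and without control LT-HSC replicates 1 to 3 its difference was 0.07 (adjusted p = 1.00). Control ST-HSC minus LT-HSC was -4.09 for Hdc (SE 0.951, adjusted p = 0.0957) and became -0.28 (adjusted p = 1.00) without the 3 libraries. Here 0 of 5 genes were called by edgeR, where 0.1% of genes were called, with 2 of the 5 and 1549 of all at an unadjusted p under 0.05, and DESeq2 called Hdc (0.0114). Control MPP3 minus LT-HSC was -0.28 for Hdc (adjusted p = 0.922) and turned to 3.55 (adjusted p = 0.366) without them, beside 3.70 among mutant libraries.

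Cpa3 averaged 38.5 ± 13.2 CPM in control MPP3, against 7.10 ± 3.64 CPM in control LT-HSC, and the ranges did not overlap, with a log2 difference of 2.45 (SE 0.648, adjusted p = 0.0744) that was 3.28 (adjusted p = 0.333) without control LT-HSC replicates 1 to 3. No gene of 5 was called in that comparison by edgeR, where 1.39% of genes were called, with 1 of the 5 and 1980 of all at an unadjusted p under 0.05, and DESeq2 called Cpa3 (0.00676). Against control ST-HSC, control MPP3 was higher in Hdc by 3.81 (SE 0.962, adjusted p = 0.0533) and in Cpa3 by 2.47 (SE 0.719, adjusted p = 0.0891), both with ranges that did not overlap and neither called. Without control ST-HSC replicate 1, the library high in Igkc, Hdc was called (5.09, adjusted p = 0.0374) and Cpa3 was not (2.51, adjusted p = 0.136). Again 0 of 5 were called, where 1.75% of genes were, with 4 of the 5 and 2357 of all at an unadjusted p under 0.05, and DESeq2 called Hdc (0.0203) and Cpa3 (0.0102). Control MPP4 minus ST-HSC gave 0 calls among 5 genes, where 1.49% of genes were called, with 1 of the 5 (Prss34) and 2245 of all at an unadjusted p under 0.05, and DESeq2 called 0 of the 7.

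**Figure D3:**
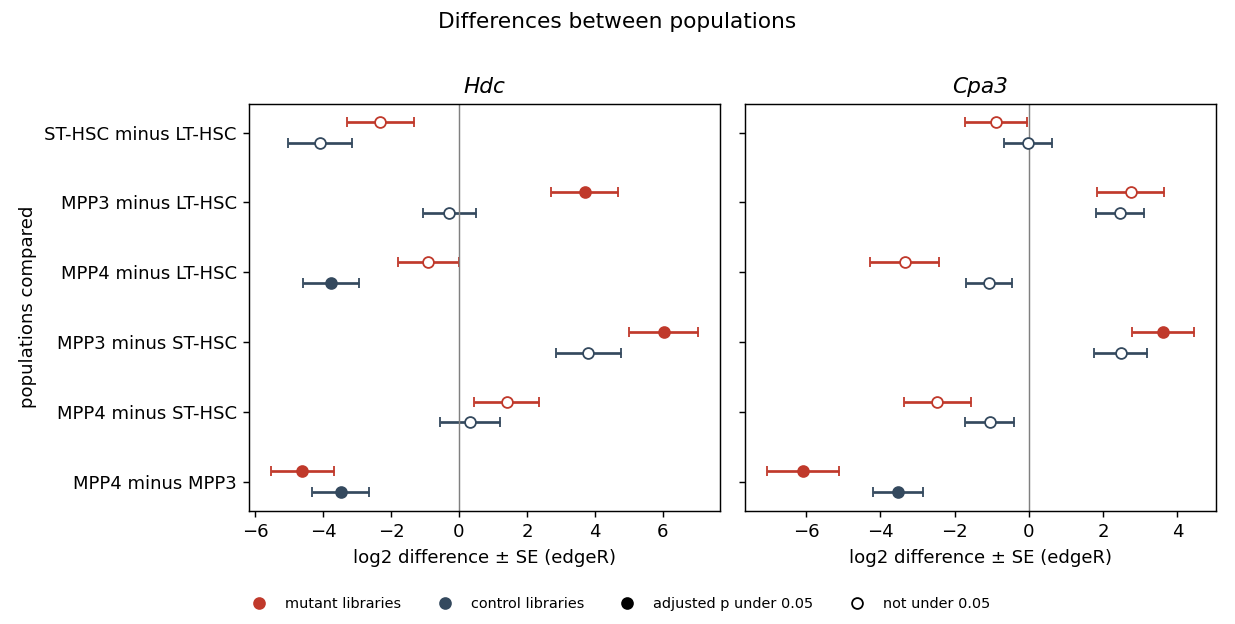
Log2 differences between populations for Hdc and Cpa3 with their SE, derived from the F value of edgeR's test. Mutant libraries are the upper point of each pair and control libraries the lower point. Filled points have an adjusted p under 0.05. The Hdc difference of MPP3 from LT-HSC is 3.70 among mutant and -0.28 among control libraries, while for Cpa3 the values of both genotypes lie side by side at 2.74 and 2.45.

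Other genes of basophils and mast cells were read from 3 lists of known members. Of 29 further granule, mediator and surface genes, 13, 9, 15 and 11 passed the filter in the mutant comparisons (LT-HSC first, then ST-HSC, MPP3 and MPP4), and 0 were called in any. Of 16 genes that carry the signal of the IgE receptor, all 16 were tested in each and 0 were called, and of 18 regulators and growth factor receptors 18, 18, 18 and 17 were tested and 0 called. The median log2 differences of these lists in LT-HSC were -0.42, -0.12 and -0.14, beside 0.00 for all genes. Tryptase and chymase genes of mature mast cells were at or near 0: Tpsab1 and Mcpt1 had no count in any group, and Cma1, the mast cell chymase, was read in all 4 mutant and all 3 control MPP3 libraries and in 1 other library, at up to 3.48 CPM. Tpsb2, a tryptase, was read in 2 of 4 mutant and 3 of 3 control MPP3 libraries and in 1 other, at up to 7.18 CPM. The library outside MPP3 was control ST-HSC replicate 1 in both cases.

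Between populations, genes of these lists were called in both directions. In mutant MPP3 against mutant LT-HSC, 1 granule, mediator or surface gene of 14 tested was called higher and 1 lower, 2 signalling genes of 16 were called higher (Fcer1g and Lat2), and 3 regulators of 18 were called higher (Csf2rb, Spi1 and Gfi1) and 1 lower, where 2.95% of all genes were called in either direction. In control MPP3 against control LT-HSC, 2 granule, mediator or surface genes of 15 were called higher and 1 lower, 0 signalling genes of 16 were called, and 1 regulator of 18 was called higher (Cebpa) and 1 lower, where 1.39% of all genes were called. In MPP4 against MPP3, 2 granule, mediator or surface genes were called lower in each genotype, as were 3 regulators in mutant and 2 in control libraries, and no signalling gene was called, where 1.13% of all genes in mutant and 0.998% in control libraries were called lower. Ms4a3, a gene expressed in granulocyte precursors, was higher in MPP3 than in LT-HSC. It stood at 46.3 ± 29.5 against 1.78 ± 2.66 CPM in mutant libraries (log2 difference 4.67, adjusted p = 0.0344). In control libraries it stood at 52.9 ± 11.1 against 4.48 ± 4.07 CPM (3.58, adjusted p = 0.0453). It was nearly absent from MPP4, with 0.0940 CPM in mutant and 0.0240 CPM in control. Slc18a2, the vesicular transporter that loads histamine and other amines into granules, went the other way: it averaged 79.7 ± 21.5 CPM in mutant MPP3, against 230 ± 83.1 CPM in mutant LT-HSC (-1.55, adjusted p = 0.01001), and 80.5 ± 1.98 CPM in control MPP3, against 194 ± 68.1 CPM in control LT-HSC (-1.26, adjusted p = 0.0316). Srgn, the proteoglycan core of granules, was called higher in control MPP3 than in control LT-HSC (0.90, adjusted p = 0.0428). Without control LT-HSC replicates 1 to 3, the control MPP3 differences were 8.40 for Ms4a3 (adjusted p = 0.0412), -1.65 for Slc18a2 (0.0229) and 1.0 for Srgn (0.322), the last no longer called.

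Gata2, a regulator of stem cells and of the mast cell and basophil lineages, was highest in LT-HSC and lowest in MPP4. It averaged 36.8 ± 13.0 CPM in mutant MPP4, against 248 ± 67.9 CPM in mutant LT-HSC (-2.76, adjusted p = 3.00e-05), and 38.9 CPM (range 26.5 to 50.4) in control MPP4, against 199 CPM (range 114 to 255) in control LT-HSC (-2.36, adjusted p = 0.000102, and -2.69, adjusted p = 0.000566, without control LT-HSC replicates 1 to 3). Gata1, which drives erythroid, mast cell and eosinophil genes, was 7.25 ± 5.17 CPM in mutant and 14.3 ± 6.03 CPM in control MPP3 but at most 1.00 CPM in any MPP4 library. Il1rl1, the IL-33 receptor of mast cells and basophils, was lower in MPP4 than in MPP3 by 3.14 in mutant (adjusted p = 0.0269) and by 3.92 in control libraries (adjusted p = 0.0106). Csf2rb, the receptor chain shared by IL-3, IL-5 and GM-CSF, was higher in mutant MPP3 than in mutant LT-HSC by 2.60 (adjusted p = 0.000432). Fcer1g, the gamma chain, stood at 4.71, 17.8 and 10.2 CPM in mutant LT-HSC, against 125, 88.2, 60.4 and 7.48 CPM in control LT-HSC, with control replicate 4 again inside the mutant range.

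**Figure D4:**
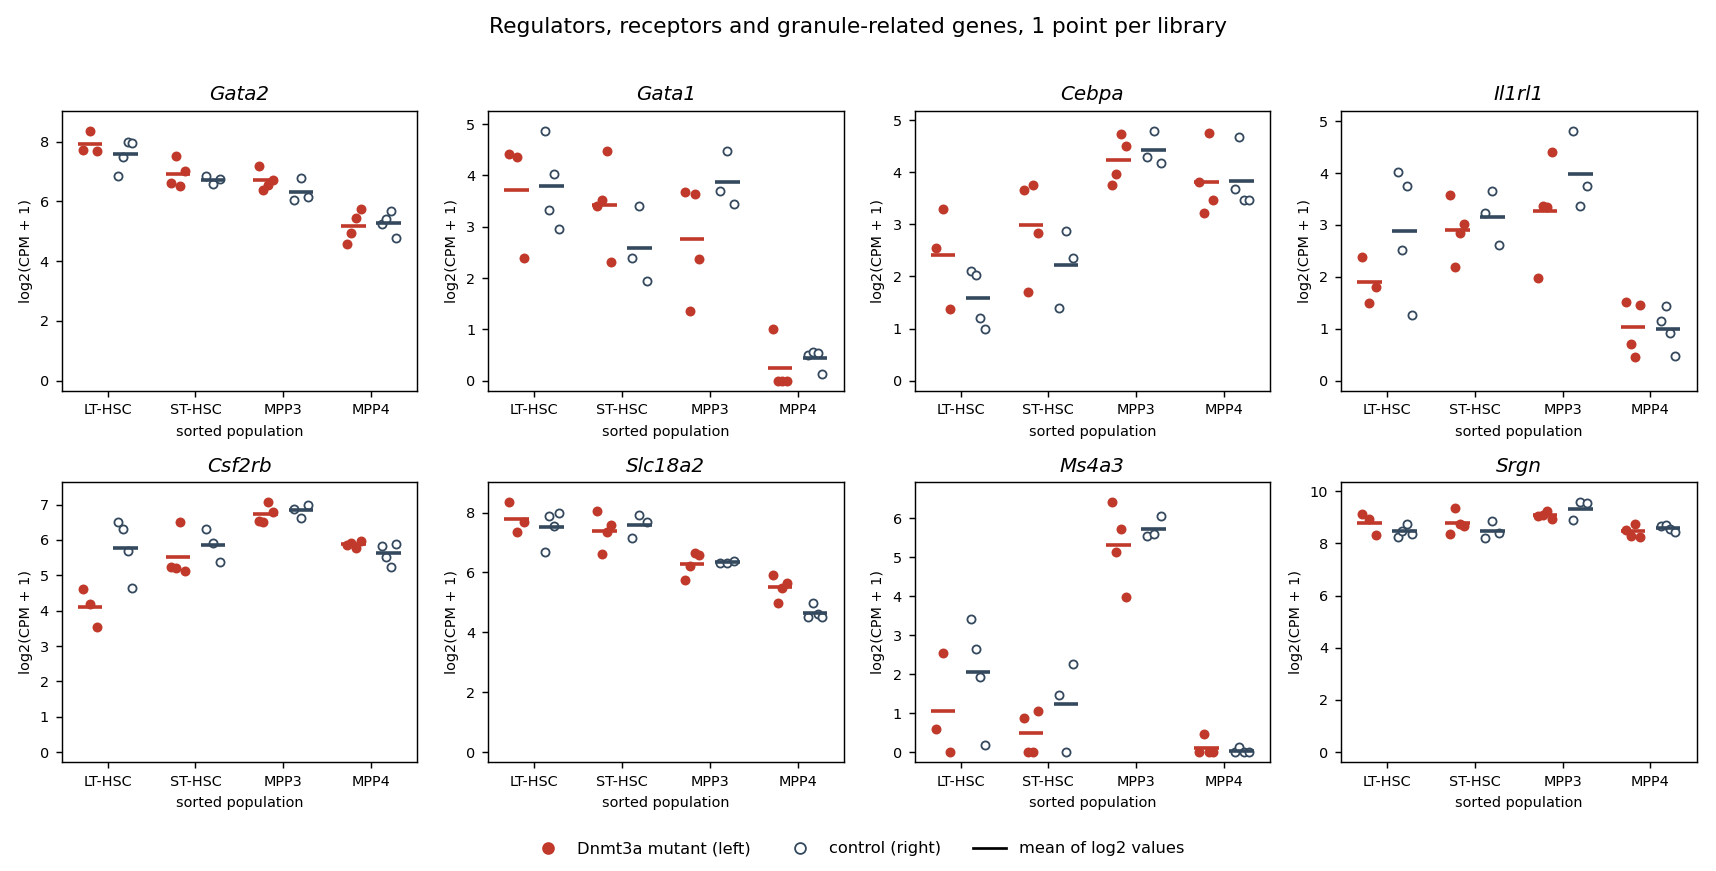
Levels of 5 regulators and receptors and of 3 granule-related genes in every library, as log2(CPM + 1), with mutant libraries (filled) left of control libraries (open) and a bar at the mean of the log2 values. Gata2 and Slc18a2 step down between LT-HSC and MPP4 in both genotypes, Ms4a3 is high only in MPP3, and Gata1 is at most 1.00 CPM in the MPP4 libraries.

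Among the genes most like the 7 across libraries were the eosinophil gene Epx and the B-cell genes Ms4a1 and Cd79a. Pearson's r was taken over 29 libraries and 15915 genes, with the mean standardised log2 level of the 6 members kept by the filter. It was 0.92 for Epx, 0.90 for Gm14005, 0.88 for Tlr1 and Mefv, 0.85 for Ms4a1 and 0.84 for Cd79a. For Hdc alone the nearest genes were Epx and Prg2 (0.88 each), for Cpa3 Ms4a3 (0.86), for Mcpt8 Tifab (0.87), for Prss34 Lilra6 (0.81) and for Gzmb Igkv4-61 (0.95), an immunoglobulin segment whose reads may be shared with near-identical segments. The libraries share populations and depth, so these values describe likeness within this set and carry no p-value.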

How the data were processed

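RNA was sequenced from 29 sorted bone marrow libraries. The authors deposited expected counts per Ensembl gene. The build GRCm38 and the tools edgeR 3.5.3, SAMtools 0.1.18, Bowtie2 2.2.0 and RSEM 1.2.12 are named, per the submitters' processing notes, whose roles, order and strand setting are not given in the sources used here. Estimated counts of this kind split reads between similar genes, so values of near-identical copies are uncertain. The counts were whole, so rounding changed nothing. Of 38924 identifiers, 37607 matched a symbol and 1317 did not.

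Libraries were grouped by title. TMM scaling, CPM and edgeR's quasi-likelihood test (edgeR 4.0.16, limma 3.58.1, R 4.3.3) were applied to the counts, with Benjamini-Hochberg adjustment over all genes tested and a threshold of 0.05. The filter on low counts was filterByExpr (minimum count 10, minimum total 15). Fitted log2 differences used edgeR's default prior count, and the log2 levels behind the likeness values used a prior count of 2. The test itself gives no SE. Each SE printed with an edgeR difference is the size of that difference divided by the square root of its F value. Each mutant comparison used only its 2 groups, populations were compared in 1 fit per genotype, and the average and the difference of mutant effects used all 29 libraries. Floors are 3 counts per library, and floors cover counting error only. A fold marked "at least" sets the group mean against the mean floor of the group at 0. A gene at 0 throughout a group passed the filter through other groups, so a difference from that group could have only 1 direction.

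Alternatives were DESeq2 1.42.0, DESeq2 size factors, no scaling, no filter, replicate blocks, a term for the leading digits of the description number, other sets of libraries in the fit, and each library left out. The test was checked on simulated data with the same spread for every gene and no libraries that stood apart. That check does not cover libraries that stand apart, as some do here. Same-group libraries differed beyond sampling noise in all 39 pairs (chi-square per degree of freedom 20.29 to 72.44), so none was counted as a duplicate. The design text counts 3 mutant MPP3 samples and the sample list holds 4, all used here. The text names the 7 genes, the genes of the 3 lists called in a comparison, marker genes and the genes most like the 7. The members and lists were chosen with earlier results of these data known. One gene among those most like the members is not reported here.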

Additional observations from a re-analysis of the deposited data

Results flagged for a closer look

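Within groups of 4 libraries, 6 of 28 gene and group combinations had 1 library far above the others. In 4 of the 6 the other 3 libraries were at 0, where any single count is singled out, so the usual chance rate of about 1 in 20 does not apply to them. In mutant MPP4, Prss34 stood at 4.559 CPM (42 counts) in replicate 4, Ms4a2 at 0.3761 CPM (3 counts) in replicate 2 and Fcer1a at 1.717 CPM (12 counts) in replicate 1. In control MPP4, replicate 2 held Fcer1a at 3.262 CPM (34 counts) and Gzmb at 0.1919 CPM (2 counts), and it was also the highest control MPP4 library for Cpa3, Mcpt8 and Prss34. In control LT-HSC, Gzmb had its 1 count, 0.1429 CPM, in replicate 1. The Ms4a2 and Gzmb values rest on 1 to 3 counts.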

How the results depend on the processing

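Of the values of single genes, 749 kept their direction and call under the other settings, 39 lost a call, 25 gained one and 17 changed sign; with 1 library left out the counts were 1036, 157, 7 and 15. The cause of these changes was not tested. The number of the 7 genes called moved as follows. Here and below, a count with no share of all genes beside it is not read as a result about the 7. Without the filter it was 3 for mutant against control LT-HSC, 2 for the average mutant effect, 1 for control ST-HSC and 1 for control MPP3 against LT-HSC, 2 for control MPP3 against ST-HSC and 2 for mutant MPP4 against LT-HSC. Of 22461 genes, 174, 359 and 396 were called without the filter in those comparisons of control populations, in that order. With DESeq2 it was 1 for mutant against control LT-HSC, 1 for control ST-HSC and 1 for control MPP3 against LT-HSC, 2 for control MPP3 against ST-HSC, 1 for mutant ST-HSC against LT-HSC, 2 for mutant MPP4 against LT-HSC and 2 against ST-HSC. With only the 2 groups in the fit it was 1 for control MPP3 against LT-HSC and 1 against ST-HSC, and without scaling 1 for mutant MPP3 against LT-HSC. Without scaling Cpa3 was 0.06 in control ST-HSC against LT-HSC.

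No set of replicate numbers had every same-numbered pair correlated over 0.1: 0 of 13 pairs passed for the title number (-0.175 to 0.092), 3 of 21 for the description number among mutant libraries (-0.077 to 0.151) and 3 of 18 among control libraries (-0.152 to 0.175). A library correlated best with its own number in 6 of 26, 21 of 42 and 13 of 36 cases, a hint from the data and not from the design. With the title number as a replicate block, 2 of the 7 were called in mutant against control LT-HSC (Hdc -4.78), where 401 of 13629 genes were called. That fit leaves out control replicate 4. With the description number as block, 1 was called in control MPP3 against ST-HSC and 2 in mutant MPP4 against LT-HSC. Under that block Cpa3 was 0.04 in control ST-HSC against LT-HSC, Hdc 0.44 and Prss34 1.12 in control MPP3 against LT-HSC, Fcer1a -0.008 in control MPP4 against ST-HSC, and Fcer1a 0.0029 for the average effect (limma voom).

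Leaving out control LT-HSC replicates 1 to 3 was chosen after seeing the data. It gave 0 calls among the 7 for control MPP4 against LT-HSC and turned these log2 differences: Cpa3 0.25 for mutant against control LT-HSC; Prss34 3.78, Mcpt8 5.59 and Cpa3 0.79 for control ST-HSC against LT-HSC; Hdc 3.55 and Prss34 8.73 for MPP3 against LT-HSC; Hdc 0.07, Prss34 8.01, Mcpt8 7.75, Fcer1a 0.22 and Alox5 1.72 for MPP4 against LT-HSC.

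With each library left out in turn, the calls among the 7 ran from 0 to 1 for the average effect, control MPP3 against ST-HSC, control MPP4 against MPP3 and control ST-HSC against LT-HSC, from 0 to 2 for control MPP4 against LT-HSC and mutant against control LT-HSC, from 2 to 4 for mutant MPP3 against ST-HSC and from 1 to 2 for mutant MPP4 against MPP3, and was 1 in each of the 7 fits for mutant MPP3 against LT-HSC, against 2 with all libraries. Fcer1a ran from -1.44 to 0.62 for the average effect, -0.39 to 1.64 for mutant against control LT-HSC and -0.03 to 1.42 for MPP3, -0.04 to 1.31 for control MPP3 and -0.30 to 1.77 for mutant MPP3 against LT-HSC, and -4.17 to 5.78 for control MPP4 against ST-HSC. In mutant against control MPP3, Gzmb ran from -1.97 to 0.88 and Mcpt8 from -0.82 to 0.96. Cpa3 ran from -0.28 to 0.34 in control ST-HSC against LT-HSC, Hdc from -0.21 to 1.60 in control MPP4 against ST-HSC and Prss34 from -2.17 to 0.87 in control MPP4 against MPP3.

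Over all genes, mutant against control LT-HSC gave 0 calls, but 189 without the filter, 319 with DESeq2, 401 with the title block, 82 with all 29 libraries in the fit and 2 without the 3 control libraries. The low counts of Ms4a2 and Gzmb limit what can be said of them.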
